A study of Mus musculus with 24 samples.

Results

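The proteasome genes of purified mouse blood stem cells were described across 4 groups of libraries. They were chosen by name, as the protein-coding rows whose symbol begins with Psma, Psmb, Psmc, Psmd, Psme, Psmf or Psmg. This rule uses gene names alone and takes 50 of the 38215 genes in the table. By role the 50 are 7 alpha ring subunits, 7 constitutive beta ring subunits, 3 inducible catalytic subunits, 6 ATPases and 11 other subunits of the regulatory particle, 7 assembly factors, 5 activators or inhibitors and 4 further genes. The alpha ring, the constitutive beta ring, the ATPases and the 11 other regulatory subunits make up 31 constitutive subunits of the 26S particle.

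The proteasome is a barrel of stacked rings that cuts ubiquitin-tagged proteins into peptides. The outer alpha rings gate the barrel, the inner beta rings hold the catalytic sites, and a regulatory particle with an ATPase ring binds, unfolds and feeds in the substrate. When interferon is present, Psmb8, Psmb9 and Psmb10 can take the places of the catalytic subunits encoded by Psmb5, Psmb6 and Psmb7 in newly built particles. The resulting immunoproteasome and the PA28 cap, encoded by Psme1 and Psme2, shape the peptides presented on class I molecules. Blood cells are known to hold immunoproteasome without stimulation, and stem cells depend on tight control of protein turnover.

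RNA was sequenced from long-term haematopoietic stem cells (LT-HSCs), sorted as lineage-negative, Sca1+, cKit+, CD150+ and CD48-, from 12 lethally irradiated Ptprc a/b C57BL/6J mice. Each mouse had received equal parts of wild-type CD45.1+ marrow and of CD45.2+ marrow from C57Bl/6N Jak2V617F/+ animals that carry Tg(E2A-cre). Jak2V617F is an activating mutation of the kinase Jak2 found in myeloproliferative neoplasms, and the E2A promoter drives Cre broadly and early. The 4 groups of 6 libraries are Jak2V617F cells from mice given pegylated interferon alpha (pegIFN), Jak2V617F cells from mice given vehicle (PBS with BSA), wild-type cells from pegIFN mice and wild-type cells from vehicle mice. Doses of 600 ng were given 5 times over 4 weeks and cells were taken 48 hours after the last one. Both genotypes were sorted from the same animals, so wild-type cells shared a host with mutant cells in every library. Genotype and what else differed between the donors, such as strain and the sex-linked genes below, cannot be told apart.

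Libraries held 24.6 to 39.7 M counts each (M for mega). Levels are CPM, counts scaled to library size, and each triple of values gives the lowest, the median and the highest of 6 libraries. Fold changes are on the log2 scale with the standard error of the edgeR model, and a gene is called at a Benjamini-Hochberg adjusted p under 0.05 over 15879 tested genes. Xist and Y-linked genes separated the donors except in 2 libraries. In replicate 4 of the wild-type vehicle group Xist stood at 599.8 CPM and Y-linked genes summed to 249.6 CPM, with 1937 to 3310 and 20.2 to 75.7 CPM in the remaining 5. In replicate 1 of the Jak2V617F pegIFN group Xist stood at 653.9 CPM, with 40.8 to 110.1 CPM in the remaining 5. The counts of called genes between the genotypes are also given without these 2 libraries, with the genes that lost a call. The stem cell markers Kit, Hlf and Slamf1 were present in every library, while Fgd5 had as little as 2.71 CPM in Jak2V617F pegIFN cells, and the T cell genes Cd3e, Cd3d and Trac did not pass 0.335 CPM in any library.

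Of the 50 genes, 49 had enough counts to be tested. Psmb11, the beta subunit of the thymus proteasome, had 0 to 3 counts per library and was not. Psma8, an alpha subunit of the testis, was scattered, from 0.275 to 19.7 CPM. Psmc3ip, a factor of meiotic recombination, and Psme2b-ps, named as a pseudogene of Psme2, are taken by the name rule but are not known subunits. Psme2b-ps held 18.4 to 21.8% of the summed counts of itself and Psme2 in every group, so reads of this near-copy can be shared between both, and their values are uncertain to that extent. The strand setting of the counting is not given in the sources used here. Psmb9 overlaps Tap1 on the other strand, and Psmb8, Psmb10, Psme1 and Psmb7 also overlap genes on the other strand, so some of their reads cannot be told apart from those of the neighbour. In GRCm38 Psmb8 (ENSMUSG00000024338, chr17:34197721-34201454) and Psmb9 (ENSMUSG00000096727, chr17:34181988-34187764) lie on the same chromosome, as do Psme1 (ENSMUSG00000022216, chr14:55578123-55581529) and Psme2 (ENSMUSG00000079197, chr14:55587441-55591113). Psmb10 (ENSMUSG00000031897) lies at chr8:105935728-105938392, Psmb5 (ENSMUSG00000022193) at chr14:54614120-54617995, Psmb6 (ENSMUSG00000018286) at chr11:70525367-70527858 and Psmb7 (ENSMUSG00000026750) at chr2:38588036-38644087.

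Promoter windows from RefSeq (GRCm38.p6), 250 bases before to 50 after each start site, were found for 41 of the 50 genes. The windows of 3 interferon-inducible genes and 2 constitutive counterparts are shown because the comparison between these gene kinds is the one the results turn on, each 5′ to 3′ on the strand of its gene. Capitals mark the letters of 3 motifs searched on both strands, GAAA followed 2 bases later by GAAA for the interferon-stimulated response element, TTCNNNGAA for the interferon-gamma activated site (GAS), and TGACNNNGC for the core of the antioxidant response element bound by Nfe2l1 and Nfe2l2.
Psmb8 (chr17:34197945-34198244, plus strand): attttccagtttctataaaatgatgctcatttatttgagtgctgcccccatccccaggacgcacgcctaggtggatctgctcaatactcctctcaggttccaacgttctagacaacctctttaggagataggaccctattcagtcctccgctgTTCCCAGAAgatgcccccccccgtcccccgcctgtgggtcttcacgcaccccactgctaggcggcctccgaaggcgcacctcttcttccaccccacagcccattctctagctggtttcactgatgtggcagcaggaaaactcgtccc
Psmb5 (chr14:54617946-54618245, minus strand): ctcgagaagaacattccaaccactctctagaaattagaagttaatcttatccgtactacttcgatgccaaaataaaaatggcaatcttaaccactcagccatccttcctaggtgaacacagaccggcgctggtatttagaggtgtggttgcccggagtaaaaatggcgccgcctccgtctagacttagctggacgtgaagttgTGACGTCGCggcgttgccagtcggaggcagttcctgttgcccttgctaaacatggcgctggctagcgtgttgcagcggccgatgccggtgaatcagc
Psmb9 (chr17:34187281-34187580, minus strand): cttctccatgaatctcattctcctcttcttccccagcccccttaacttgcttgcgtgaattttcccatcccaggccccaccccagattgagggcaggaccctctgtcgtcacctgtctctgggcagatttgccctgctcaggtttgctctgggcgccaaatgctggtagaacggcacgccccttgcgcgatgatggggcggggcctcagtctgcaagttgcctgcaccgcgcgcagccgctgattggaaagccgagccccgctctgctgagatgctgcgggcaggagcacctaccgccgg
Psmb6 (chr11:70525107-70525406, plus strand): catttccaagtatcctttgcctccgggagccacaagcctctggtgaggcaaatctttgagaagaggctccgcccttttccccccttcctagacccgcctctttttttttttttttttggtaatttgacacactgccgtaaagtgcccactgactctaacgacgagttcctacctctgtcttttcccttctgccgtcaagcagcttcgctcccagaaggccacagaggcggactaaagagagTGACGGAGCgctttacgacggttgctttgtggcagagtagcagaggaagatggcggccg
Psme1 (chr14:55578244-55578543, plus strand): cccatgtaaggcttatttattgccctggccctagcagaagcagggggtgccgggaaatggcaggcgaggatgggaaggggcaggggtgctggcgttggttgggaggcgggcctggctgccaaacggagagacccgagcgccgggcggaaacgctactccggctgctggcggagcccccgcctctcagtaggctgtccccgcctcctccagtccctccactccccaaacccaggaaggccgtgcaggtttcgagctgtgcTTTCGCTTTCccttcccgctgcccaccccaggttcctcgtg

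In these windows the GAS letters stood at -97 to -89 of Psmb8, counted from its start site. The response element stood at 10 to 19 of Psme1, as its reverse complement. The antioxidant element stood at -47 to -39 of Psmb5 and at -9 to -1 of Psmb6, while Psmb9, Psmb10 and Psme2 held none of the 3 motifs in the window. The RefSeq starts of Psmb8, Psmb9 and Psme1 lie inside the gene extents of the annotation, and other starts were not examined. Over all 32851 windows, 3.44% held the response element, 8.30% GAS and 12.4% the antioxidant element. The 25 constitutive 26S subunits with a window held them in 2, 1 and 4 cases (8%, 4% and 16%). These matches describe letters and show no binding.

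Without interferon, Psme1 and Psmb8 had the highest levels per kilobase of transcript of all 50 genes in wild-type cells, and the other 3 inducible genes stood lower in the order. Per kilobase of transcript, Psme1 had 217 ± 19.3 CPM in Jak2V617F vehicle cells and 207 ± 18.6 CPM in wild-type vehicle cells (SD, n = 6 each), and it ranked highest of the 50 genes in wild-type vehicle cells. Psmb8, which replaces Psmb5, had 156 ± 18.9 CPM per kilobase in Jak2V617F vehicle cells and 144 ± 11.4 CPM per kilobase in wild-type vehicle cells, where it ranked second. Its counterpart Psmb5 had 100.3 ± 5.41 and 76.8 ± 9.36 CPM per kilobase in the same groups. Psmb9 had 92.9 ± 13.0 CPM per kilobase in Jak2V617F vehicle cells and 85.9 ± 11.3 in wild-type vehicle cells, where its counterpart Psmb6 had 117 ± 11.7 and 96.3 ± 10.3. Psmb10 had 69.4 ± 11.3 CPM per kilobase in Jak2V617F vehicle cells and 63.9 ± 7.67 in wild-type vehicle cells, and its counterpart Psmb7 had 83.1 ± 8.42 and 64.5 ± 10.5. These are levels of RNA and say nothing of which subunit sits in the particle.

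The subunits of 1 ring are built in equal numbers, but their RNAs were not level. In wild-type vehicle cells the alpha ring ran from 25.5 CPM per kilobase for Psma2 to 132 for Psma7, a range of 5.16-fold. The constitutive beta ring ran from 54.9 for Psmb1 to 113 for Psmb4, a range of 2.06-fold. The ATPases ran from 28.4 for Psmc6 to 79.6 CPM per kilobase for Psmc3. The same genes stood at both ends of these 3 rings in all 4 groups. Transcript lengths are those of 1 principal transcript per gene, so levels between genes are approximate.

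The first comparison, pegIFN against vehicle within each genotype, asks what repeated interferon does to these genes. Nearly the whole proteasome rose. In Jak2V617F cells 47 of the 49 tested genes were called higher with pegIFN and none lower (none at an unadjusted p under 0.05 with edgeR, 1 with DESeq2, Psma8), where 21.7% of all tested genes were called higher and 22.3% lower. In wild-type cells 46 were called higher and none lower (none at an unadjusted p under 0.05 with edgeR or DESeq2), against 28.2% and 28.7% of all genes. Among genes at least as abundant as a log2 CPM of 6, which all 31 constitutive 26S subunits are, 36.3% were called higher in Jak2V617F cells and 48% in wild-type cells. All 31 constitutive 26S subunits were called higher in both genotypes. In bulk RNA, a change in the share of cells that hold a transcript and a change per cell cannot be told apart. The changes were small, with a median log2 fold change over the 49 genes of 0.37 in Jak2V617F cells and 0.46 in wild-type cells, beside -0.01 over all genes in each.

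Psmb8 had 344, 373 and 389 CPM in Jak2V617F pegIFN cells, against 199.6, 259 and 293 CPM in Jak2V617F vehicle cells. In wild-type cells it had 354, 370.2 and 396 CPM with pegIFN and 203, 234 and 256 CPM with vehicle. Every pegIFN library lay above every vehicle library of its genotype, and the log2 fold change was 0.54 ± 0.07 in Jak2V617F cells (edgeR adjusted p = 1.5e-06) and 0.67 ± 0.07 in wild-type cells (edgeR adjusted p = 2.0e-08). Psmb9, which replaces Psmb6, had 163, 181 and 194 CPM in Jak2V617F pegIFN cells and 101, 127 and 146 CPM in Jak2V617F vehicle cells. It had 161, 179.5 and 187 CPM in wild-type pegIFN cells and 95.1, 122 and 131 CPM in wild-type vehicle cells. Again the treatments did not overlap, with log2 fold changes of 0.51 ± 0.09 and 0.60 ± 0.09 in Jak2V617F and wild-type cells. Psmb10, which replaces Psmb7, had 114, 129 and 141 CPM in Jak2V617F pegIFN cells and 76.7, 86.4 and 110.1 CPM in Jak2V617F vehicle cells. It had 115, 123 and 129 CPM in wild-type pegIFN cells and 68.2, 87.7 and 94.2 CPM in wild-type vehicle cells. Its log2 fold change was 0.50 ± 0.09 in Jak2V617F cells and 0.55 ± 0.09 in wild-type cells, also without overlap.

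**Figure D1:**
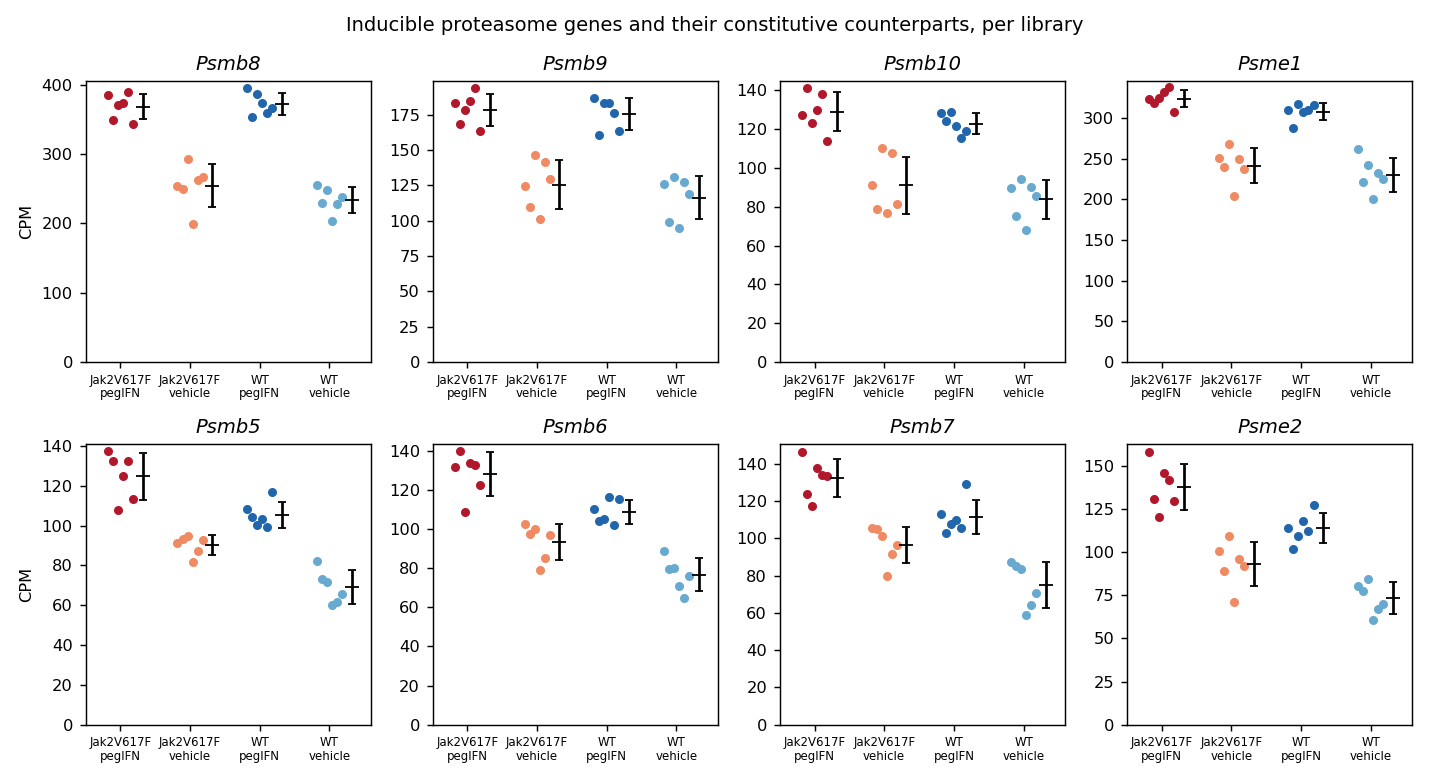
CPM of the inducible genes Psmb8, Psmb9, Psmb10, Psme1 and Psme2 and the constitutive counterparts Psmb5, Psmb6 and Psmb7 (vertical axes start at 0). Each point is a library of the group named below, the black mark beside it is the mean with SD of 6 libraries, and in each panel the pegIFN libraries lie above the vehicle libraries of the same genotype.

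The counterparts of these 3 rose by about as much. Psmb5, the subunit with chymotrypsin-like activity, had 108, 129 and 137 CPM in Jak2V617F pegIFN cells and 81.8, 91.9 and 94.9 CPM in Jak2V617F vehicle cells. It had 99.5, 104 and 117 CPM in wild-type pegIFN cells and 60.0, 68.6 and 82.4 CPM in wild-type vehicle cells. The groups did not overlap, and the log2 fold changes were 0.47 ± 0.07 and 0.61 ± 0.07 in Jak2V617F and wild-type cells. Psmb6, with caspase-like activity, changed by 0.46 ± 0.07 and 0.50 ± 0.07 in the same order of genotypes. Psmb7, with trypsin-like activity, changed by 0.45 ± 0.09 and 0.57 ± 0.09. All 6 of these values were called.

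Among the caps, the PA28 genes rose and the gene of PA200 was not called. Psme1, the alpha subunit of PA28, had 307, 324 and 339 CPM in Jak2V617F pegIFN cells and 204, 245 and 268 CPM in Jak2V617F vehicle cells. In wild-type cells Psme1 had 289, 310.0 and 318 CPM with pegIFN and 200.0, 229 and 262 CPM with vehicle. The treatments did not overlap in either genotype, which was also the case for Psme2. Psme2, the beta subunit, had 121, 136 and 158 CPM in Jak2V617F pegIFN cells and 71.0, 94.3 and 109 CPM in Jak2V617F vehicle cells, and 102, 113 and 128 CPM in wild-type pegIFN cells and 60.5, 73.8 and 84.7 CPM in wild-type vehicle cells. The log2 fold change of Psme1 was 0.42 ± 0.06 in both genotypes and that of Psme2 was 0.57 ± 0.09 in Jak2V617F and 0.64 ± 0.09 in wild-type cells. Psme3, the nuclear PA28 gamma, rose by 0.33 ± 0.06 in Jak2V617F and 0.48 ± 0.06 in wild-type cells. Psme4, the large single-chain cap PA200, had 87.1, 94.2 and 109 CPM in Jak2V617F pegIFN cells and 85.2, 96.1 and 109 CPM in Jak2V617F vehicle cells. Its log2 fold change was 0.00 ± 0.06 (edgeR adjusted p = 0.98) there and 0.04 ± 0.06 (edgeR adjusted p = 0.66) in wild-type cells, and both signs turn with upper-quartile scaling. Psmf1, which encodes the inhibitor PI31, was called in Jak2V617F cells at 0.14 ± 0.05 (edgeR adjusted p = 0.026) and was at 0.05 ± 0.05 in wild-type cells, a sign that also turns with upper-quartile scaling. The Jak2V617F call of Psmf1 was lost in 2 of 24 fits that left out 1 library and with upper-quartile scaling (0.08, edgeR adjusted p = 0.19).

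Within the constitutive particle, the classes overlapped. The median log2 fold change of the 7 beta ring genes was 0.46 in Jak2V617F and 0.55 in wild-type cells, that of the alpha ring 0.36 and 0.35, that of the ATPases 0.39 and 0.56, and that of the 11 other regulatory subunits 0.37 and 0.48. The largest beta ring increase was that of the structural subunit Psmb3, at 0.53 ± 0.07 and 0.72 ± 0.07, and the smallest that of Psmb1, at 0.31 ± 0.06 and 0.33 ± 0.06 in Jak2V617F and wild-type cells. In the alpha ring Psma5 rose most (0.47 ± 0.09 and 0.54 ± 0.09) and Psma1 least (0.33 ± 0.08 and 0.26 ± 0.08). The ATPase Psmc5 had 121, 136 and 142 CPM in Jak2V617F pegIFN cells and 81.0, 91.6 and 94.0 CPM in Jak2V617F vehicle cells. Its log2 fold change of 0.59 ± 0.07 in Jak2V617F and 0.77 ± 0.07 in wild-type cells was the largest of the 31 constitutive 26S subunits in both. The smallest ATPase changes were those of Psmc1 in Jak2V617F cells (0.28 ± 0.06) and Psmc6 in wild-type cells (0.29 ± 0.09). Among the other regulatory subunits the ubiquitin receptor Psmd4 rose most (0.50 ± 0.06 and 0.63 ± 0.06), and Psmd8 in Jak2V617F (0.31 ± 0.07) and Psmd6 in wild-type cells (0.41 ± 0.07) rose least.

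All 7 assembly factors were called higher in both genotypes. Psmg3, a chaperone of alpha ring assembly, had 22.2, 31.9 and 36.8 CPM in Jak2V617F pegIFN cells and 16.8, 19.9 and 21.6 CPM in Jak2V617F vehicle cells. At 0.68 ± 0.10 in Jak2V617F and 0.83 ± 0.10 in wild-type cells, it had the largest log2 fold change of all 49 genes in both. The smallest among the assembly factors were Psmg4 in Jak2V617F cells (0.25 ± 0.08) and Psmd10, the base chaperone known as gankyrin, in wild-type cells (0.29 ± 0.09). Of the remaining genes, Psmc3ip (0.37 ± 0.12 and 0.45 ± 0.12) and Psme2b-ps (0.66 ± 0.10 and 0.63 ± 0.10) were called higher in Jak2V617F and wild-type cells. Psma8 was at -1.38 ± 0.66 in Jak2V617F cells (edgeR adjusted p = 0.098) and at -0.01 ± 0.63 in wild-type cells, and was called lower in Jak2V617F cells once the 2 libraries that stood apart were left out (edgeR adjusted p = 0.042).

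In 34 of the 49 genes every Jak2V617F pegIFN library lay above every Jak2V617F vehicle library, beside 9.81% of all tested genes, and in wild-type cells the count was 38, beside 15.1%. No gene of the 49 showed the reverse in either genotype. Markers of stem cells and of other cell types moved along with the treatment. The summed level of the 7 LT-HSC markers was 625 to 1195 CPM in Jak2V617F pegIFN cells and 931 to 1434 CPM in Jak2V617F vehicle cells, and 751 to 1101 and 1257 to 2040 CPM in wild-type pegIFN and wild-type vehicle cells. Within this sum Ly6a, which encodes the Sca1 antigen used in the sort, went the other way, with 151 to 357 CPM in Jak2V617F pegIFN and 37.5 to 64.7 CPM in Jak2V617F vehicle cells, and with 144 to 281 and 37.4 to 68.5 CPM in wild-type pegIFN and wild-type vehicle cells. Among the 6 erythroid markers, Klf1 had 61.03 to 127 CPM in wild-type pegIFN cells and 12.1 to 29.1 CPM in wild-type vehicle cells, Epor had 49.2 to 71.9 and 21.9 to 26.1 CPM, and Hbb-b2 had 4.37 to 12.1 and 26.9 to 128 CPM, each without overlap. The sums of these 6 overlapped between treatments in both genotypes. The 5 dendritic cell and macrophage markers, mostly the class II genes Cd74 and H2-Aa, summed to 64.1 to 276 CPM in Jak2V617F pegIFN cells and 145 to 421 CPM in Jak2V617F vehicle cells, and to 66.7 to 134 and 124 to 437 CPM in wild-type pegIFN and wild-type vehicle cells. The 5 T and NK cell markers summed to 89.7 to 143 CPM in Jak2V617F pegIFN cells and 58.7 to 78.2 CPM in Jak2V617F vehicle cells, and to 65.4 to 103 and 36.6 to 81.2 CPM in wild-type pegIFN and wild-type vehicle cells, nearly all of it from Nkg7. Klrb1c of this list fell, with 0.0306 to 0.890 CPM in Jak2V617F pegIFN and 1.15 to 2.52 CPM in Jak2V617F vehicle cells. It had 0.0940 to 0.508 and 3.22 to 5.46 CPM in wild-type pegIFN and wild-type vehicle cells. The part of all these markers in the result was not tested.

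**Figure D2:**
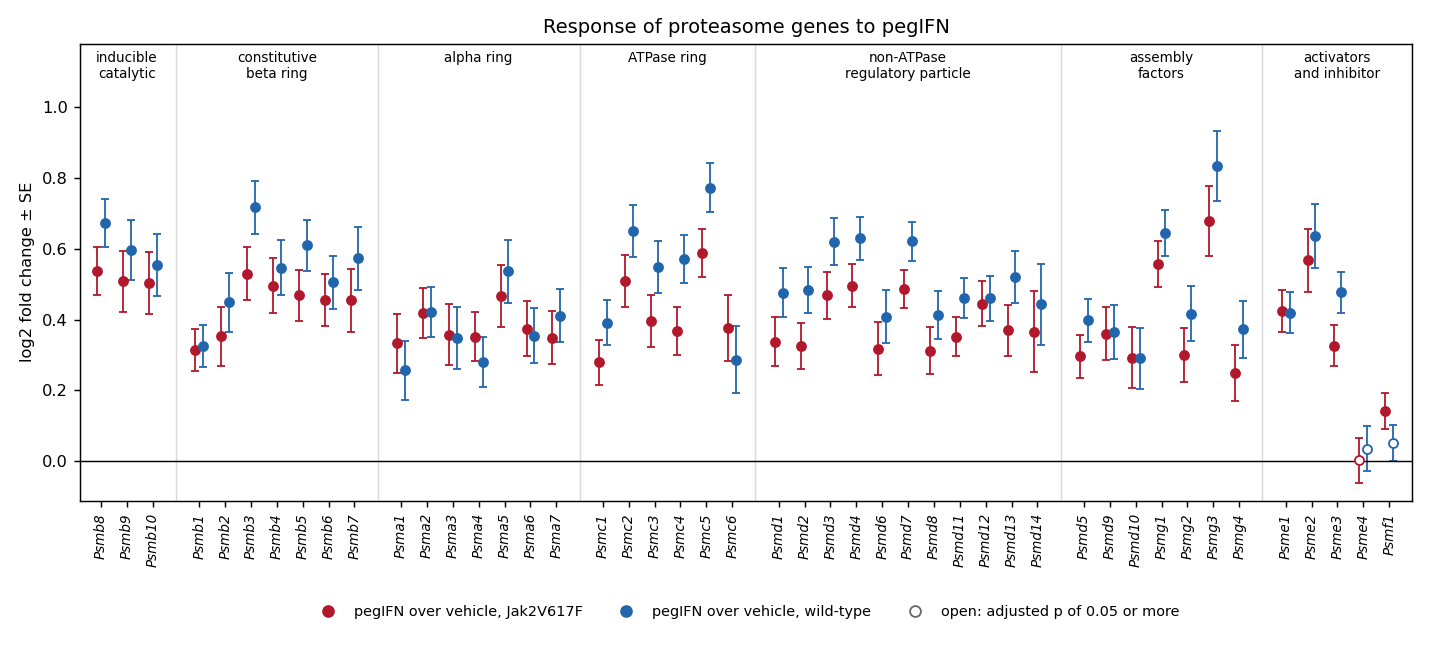
Log2 fold change, pegIFN over vehicle, of 46 proteasome genes by class, in Jak2V617F (red) and wild-type (blue) cells, with the standard error of the edgeR model. Filled points are called at an adjusted p under 0.05, and all but Psme4 and, in wild-type cells, Psmf1 lie above 0 and are filled.

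The ratio of an inducible RNA to that of the subunit it replaces was measured in each library. The log2 ratio of Psmb8 to Psmb5 was 1.57 ± 0.13 in Jak2V617F pegIFN cells and 1.49 ± 0.12 in Jak2V617F vehicle cells (SD, n = 6 each, exact permutation test, two-sided, adjusted p = 0.58). It was 1.82 ± 0.10 in wild-type pegIFN cells and 1.77 ± 0.11 in wild-type vehicle cells (exact permutation test, adjusted p = 0.58). The differences were thus 0.08 ± 0.07 and 0.06 ± 0.06 (SE). For Psmb9 to Psmb6 pegIFN minus vehicle was 0.06 ± 0.10 in Jak2V617F and 0.09 ± 0.11 in wild-type cells, and for Psmb10 to Psmb7 it was 0.06 ± 0.12 and -0.02 ± 0.11 (SE). None of these 6 differences was called, with adjusted p-values over 15 ratio comparisons between 0.58 and 0.84 by exact permutation test. A difference of the size of these errors was not detectable, and differences well above them could also go uncalled. Between the genotypes under pegIFN, -0.21 ± 0.08 (SE) for Psmb9 to Psmb6 was not called (exact permutation test, adjusted p = 0.12).

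The second question is how mutant and wild-type LT-HSCs of the same mouse differ. Constitutive proteasome genes were higher in Jak2V617F cells, and the inducible catalytic genes were not called. Under vehicle 34 of 49 genes were called higher in Jak2V617F cells and none lower (none at an unadjusted p under 0.05 with edgeR or DESeq2), where 8.48% of all tested genes were called higher and 4.23% lower (15.5% higher among abundant genes). Of the 31 constitutive 26S subunits 27 were called, with a median log2 fold change of 0.32, and of the 3 inducible catalytic genes none. With the mouse as a block the count was 43, beside 17.5% of all genes, and without the 2 libraries that stood apart it was 25. The fit without the 2 libraries called 701 of all 15944 tested genes higher, where the fit of all libraries called 1346 of 15879. By class, without these 2, 4 of 7 alpha ring genes, 6 of 7 of the constitutive beta ring, 4 of 6 ATPases, 6 of 11 other regulatory subunits and 4 of 7 assembly factors were called, and with the mouse as a block 7, 7, 6, 11 and 6. Leaving out wild-type vehicle replicate 4 alone gave 22.

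Psmb5 had 81.8, 91.9 and 94.9 CPM in Jak2V617F vehicle cells and 60.0, 68.6 and 82.4 CPM in wild-type vehicle cells. It was higher in the Jak2V617F library in 6 of 6 mice, and at 0.39 ± 0.07 (edgeR adjusted p = 0.0025) it had the largest called difference of the beta ring. Psmb7 (0.37 ± 0.09), Psmb6 (0.28 ± 0.07) and Psmb4 (0.26 ± 0.08), the smallest of that ring, were called as well, and Psmb4 lost its call without the 2 libraries that stood apart (edgeR adjusted p = 0.074). Of the alpha ring 6 of 7 were called, from Psma4 (0.23 ± 0.07) to Psma5 (0.35 ± 0.09). Of the ATPases 5 of 6 were called, from Psmc2 (0.27 ± 0.07) to Psmc5, which had 81.0, 91.6 and 94.0 CPM in Jak2V617F vehicle cells and 56.8, 70.3 and 79.9 CPM in wild-type vehicle cells (0.36 ± 0.07). Of the other regulatory subunits 9 of 11 were called, from Psmd4 (0.22 ± 0.06) to the deubiquitinase Psmd14 (0.41 ± 0.11). The assembly factors Psmg1 to Psmg4 were called, from Psmg1 (0.33 ± 0.06) to Psmg3 (0.41 ± 0.10). Without the 2 libraries that stood apart Psma4, Psma6, Psmc2, Psmd2, Psmd4 and Psmd14 lost their calls (edgeR adjusted p = 0.051 to 0.088).

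Of the 5 inducible genes, Psme2 alone was called under vehicle. Psmb8 had 199.6, 259 and 293 CPM in Jak2V617F vehicle cells and 203, 234 and 256 CPM in wild-type vehicle cells, with overlap and a log2 fold change of 0.12 ± 0.07 (edgeR adjusted p = 0.24). Psmb9 was at 0.11 ± 0.09 (edgeR adjusted p = 0.39), Psmb10 at 0.12 ± 0.09 (edgeR adjusted p = 0.37) and Psme1 at 0.07 ± 0.06 (edgeR adjusted p = 0.46). With the mouse as a block Psmb8 (0.11, edgeR adjusted p = 0.042) and Psmb9 (0.11, edgeR adjusted p = 0.029) were called higher, as was Psmb8 without Jak2V617F vehicle replicate 4 (adjusted p = 0.044). Psme2 was called higher at 0.34 ± 0.09 (edgeR adjusted p = 0.015), in 6 of 6 mice, and missed the threshold without wild-type vehicle replicate 4 (0.28, adjusted p = 0.054), as did Psmb6. Psme3 was called at 0.19 ± 0.06 (edgeR adjusted p = 0.031) and lost its call without the 2 libraries that stood apart (edgeR adjusted p = 0.085), with only the groups compared (edgeR adjusted p = 0.080) and in 7 of 24 fits that left out 1 library. Psme4 was at -0.07 ± 0.06 and Psmf1 at -0.07 ± 0.05.

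Under pegIFN the same comparison gave 15 genes called higher in Jak2V617F cells and none lower, beside 4.16% and 4.43% of all tested genes (4.97% higher among abundant genes). At an unadjusted p under 0.05 the counts were 34 and 1, the lower gene being Psma8. All 7 alpha ring genes were among the 15, 3 of 7 beta ring genes, 2 of 6 ATPases, 2 of 11 other regulatory subunits and 1 of 7 assembly factors, and none of the 5 inducible genes. Psma3 had 117, 142 and 161 CPM in Jak2V617F pegIFN cells and 88.1, 111 and 139 CPM in wild-type pegIFN cells, at 0.36 ± 0.09 the largest called difference. The others at the ends of their class were Psma7 (0.27 ± 0.07), Psmb1 (0.28 ± 0.06), Psmb6 (0.23 ± 0.07), Psmc6 (0.31 ± 0.09), Psmc1 (0.23 ± 0.06), Psmd8 (0.26 ± 0.07), Psmd12 (0.23 ± 0.06) and Psmg1 (0.24 ± 0.06). Psmb5 was called at 0.24 ± 0.07 (edgeR adjusted p = 0.035) and Psmb7 was at 0.25 ± 0.09 (edgeR adjusted p = 0.081). Without the 2 libraries that stood apart Psmb5 and Psmb6 lost their calls (edgeR adjusted p = 0.076 and 0.093), as they did with no filter (0.062 and 0.080) and in 9 and 17 of 24 fits that left out 1 library. Psma1, Psma5, Psma6, Psma7, Psmc6, Psmd12 and Psmg1 also lost their calls without the 2 libraries (edgeR adjusted p = 0.052 to 0.12). Psmb8 was at -0.02 ± 0.07, Psmb9 at 0.02 ± 0.09, Psmb10 at 0.07 ± 0.09, Psme1 at 0.07 ± 0.06 and Psme2 at 0.27 ± 0.09 (edgeR adjusted p = 0.054). With the mouse as a block Psmb7 (0.25, edgeR adjusted p = 0.0014) and Psme2 (0.27, edgeR adjusted p = 0.0015) were called, as was Psmc3ip (0.30, edgeR adjusted p = 0.014), which was at 0.30 ± 0.12 without the block (edgeR adjusted p = 0.11) and was called under vehicle at 0.38 ± 0.12 (edgeR adjusted p = 0.039). Without the 2 libraries that stood apart the vehicle call of Psmc3ip was lost (edgeR adjusted p = 0.10). Psmb7 and Psme2 were also called under pegIFN with only the groups compared (edgeR adjusted p = 0.027 and 0.024), and Psme2 with DESeq2 (adjusted p = 0.032).

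This count moved with single libraries. With the mouse as a block 35 genes were called higher, beside 13.3% of all genes, and 1 lower, Psma8 (-1.89, edgeR adjusted p = 0.031). The 35 held 7 of 7 alpha ring genes, 7 of 7 of the constitutive beta ring, 5 of 6 ATPases, 7 of 11 other regulatory subunits, 6 of 7 assembly factors and none of the 3 inducible catalytic genes. Without the 2 libraries that stood apart 6 genes were called, 3 of the alpha ring, 1 of the beta ring, 1 ATPase and 1 other regulatory subunit, with no assembly factor. That fit called 238 of all 15944 tested genes higher, where the fit of all libraries called 661 of 15879. Leaving out 1 library gave 3 proteasome genes without Jak2V617F pegIFN replicate 1, 29 without replicate 3, 6 without replicate 4 and 9 without replicate 6 of that group. It gave 7, 5, 5 and 8 without wild-type pegIFN replicates 1, 2, 3 and 4. The median log2 fold change of the 31 constitutive 26S subunits was 0.23 with all libraries and 0.21 without the 2, and all 31 values were above 0 in both fits. Every Jak2V617F library lay above every wild-type library in 7 of 49 genes under vehicle and in 2 under pegIFN, beside 1.76% and 1.65% of all genes.

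**Figure D3:**
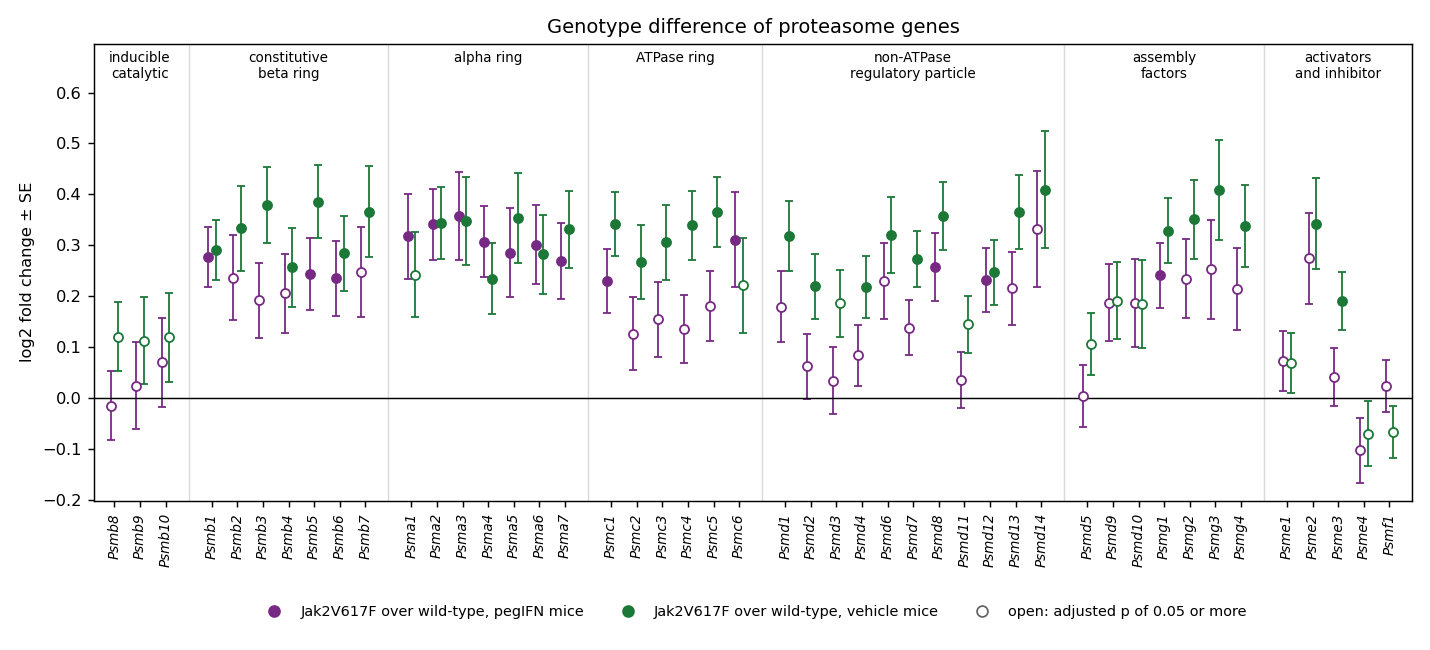
Log2 fold change, Jak2V617F over wild-type, of 46 proteasome genes by class, in pegIFN mice (purple) and vehicle mice (green), with the standard error of the edgeR model. Filled points are called at an adjusted p under 0.05. Open in both are the 3 inducible catalytic genes, Psme1, Psme4 and Psmf1, and also Psmd3, Psmd11, Psmd5, Psmd9 and Psmd10.

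The ratio tests the difference between an inducible gene and its counterpart directly. The log2 ratio of Psmb8 to Psmb5 ran from 1.40 to 1.78 with a median of 1.56 in Jak2V617F pegIFN cells, and from 1.65 to 1.95 with a median of 1.85 in wild-type pegIFN cells. Under vehicle it ran from 1.29 to 1.63 with a median of 1.50 in Jak2V617F cells and from 1.63 to 1.88 with a median of 1.78 in wild-type cells. It was lower in the Jak2V617F library in 6 of 6 mice under each treatment, and under vehicle the genotypes did not overlap. The difference was -0.26 ± 0.07 under pegIFN (exact permutation test, p = 0.0065, adjusted p = 0.049) and -0.28 ± 0.07 under vehicle (exact permutation test, p = 0.0022, the smallest it can give, adjusted p = 0.032). On the linear scale the ratio changed by -16.3% under pegIFN and by -17.5% under vehicle. The calls were lost in an exact permutation test that flips signs within mice (adjusted p = 0.078 for both), which cannot go below p = 0.031, and without the 2 libraries that stood apart (-0.24 and -0.28, adjusted p = 0.097 and 0.065). Under pegIFN the call was also lost in 11 of 12 exact permutation tests that left out 1 library (adjusted p = 0.065 to 0.097).

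The other ratios pointed the same way in every mouse and were not called by permutation over libraries, which does not use the pairing. Psmb9 to Psmb6 differed by -0.21 ± 0.08 under pegIFN (exact permutation test, adjusted p = 0.12) and -0.17 ± 0.12 under vehicle (exact permutation test, adjusted p = 0.48). Psmb10 to Psmb7 differed by -0.18 ± 0.09 and -0.26 ± 0.14 (exact permutation test, adjusted p = 0.25 for both). Each was lower in the Jak2V617F library in 6 of 6 mice under pegIFN and in 6 of 6 under vehicle. With every mouse on the same side, the exact test that flips signs within mice gives its smallest p, 0.031, for each. It thus ranks the 3 ratios alike and cannot tell them apart. A ratio shows unequal levels and does not say which of its 2 genes changed.

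**Figure D4:**
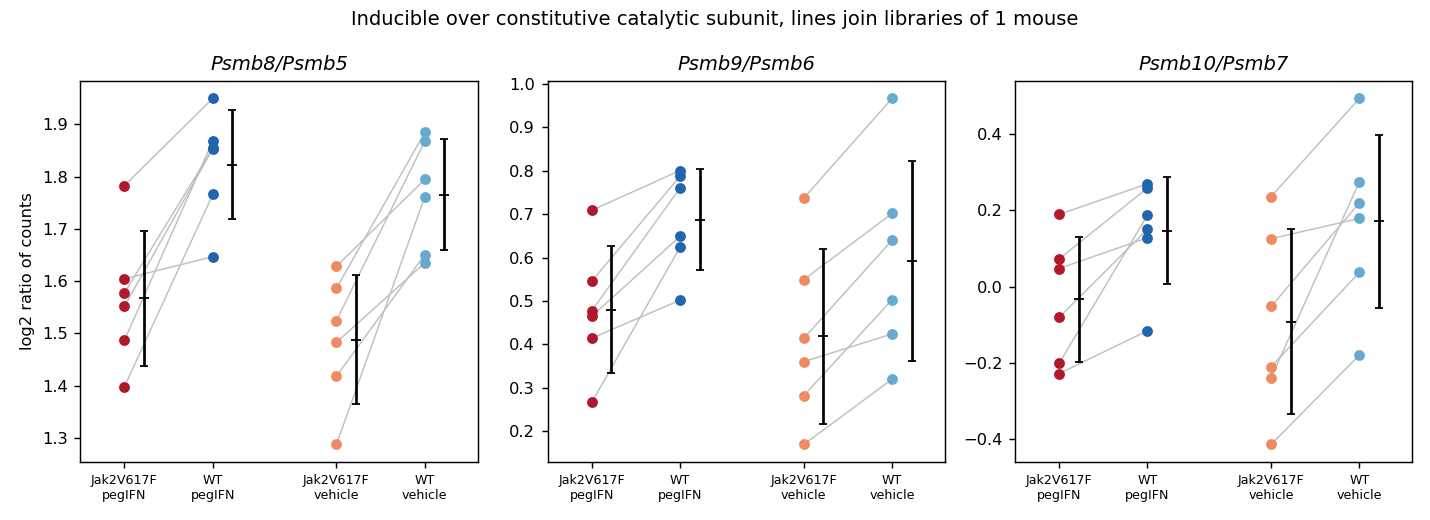
Log2 ratio of counts of each inducible catalytic gene to its constitutive counterpart, per library, with pegIFN mice at the left and vehicle mice at the right of each panel. Grey lines join both libraries of 1 mouse and black marks give the mean with SD of 6, and in all 12 mice the Jak2V617F library lies below its wild-type partner in each of the 3 ratios.

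Markers also moved with the genotype. The 6 granulocyte and monocyte markers, led by Mpo, summed to 594 to 1080 CPM in Jak2V617F pegIFN cells and 94.8 to 398 CPM in wild-type pegIFN cells, and to 167 to 1522 and 143 to 620 CPM in Jak2V617F vehicle and wild-type vehicle cells. Csf1r, the receptor of mature monocytes, did not pass 12.9 CPM in any library. The LT-HSC marker sum had a median of 771 CPM in Jak2V617F pegIFN and 932 CPM in wild-type pegIFN cells, and of 1099 and 1590 CPM in Jak2V617F vehicle and wild-type vehicle cells. Kit, the receptor used in the sort, had medians of 319 and 489 CPM in Jak2V617F and wild-type pegIFN cells, and 605 and 923 CPM in Jak2V617F and wild-type vehicle cells. Other markers of this sum did not follow Kit under pegIFN. In Jak2V617F and wild-type pegIFN cells Hlf had medians of 92.4 and 86.6 CPM and Ly6a of 258 and 235 CPM. Slamf1 (36.3 and 35.9 CPM), Mecom (39.6 and 40.6 CPM) and Procr (9.91 and 10.4 CPM) were nearly level, and Fgd5 had 3.58 and 6.05 CPM. Nkg7 had medians of 117 and 84.8 CPM in Jak2V617F and wild-type pegIFN cells, and 63.2 and 42.1 CPM in Jak2V617F and wild-type vehicle cells. Klrb1c of the same T and NK list went the other way under vehicle, with medians of 1.75 and 4.69 CPM in Jak2V617F and wild-type cells. Under pegIFN its medians were 0.327 and 0.254 CPM. The 4 megakaryocyte markers summed to medians of 2110 and 1876 CPM in Jak2V617F and wild-type pegIFN cells, and 1870 and 1384 CPM in Jak2V617F and wild-type vehicle cells. Their part in the genotype result was not tested.

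Whether pegIFN acted differently in the 2 genotypes was tested as an interaction. No gene of the 49 was called, as none of all 15879 genes was with edgeR, and DESeq2 called none of the 49. At an unadjusted p under 0.05 edgeR gave 1 gene, Psmc4 (-0.20 ± 0.10), and DESeq2 also gave Psmc4 alone. With the mouse as a block again none of the 49 was called, where 1.28% of all genes were called higher and 2.05% lower, and 14 of the 49 had an unadjusted p under 0.05, all lower. Psmb8 was at -0.14 ± 0.10, Psmb5 at -0.14 ± 0.10, Psme1 at 0.00 ± 0.08 and Psme3 at -0.15 ± 0.08 in the fit without the block. The 3 ratios gave -0.03 to 0.08, none called by exact permutation of the within-mouse differences (adjusted p = 0.58 to 0.84).

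Of a list of 30 genes that work with the proteasome or regulate it, 29 were tested. In Jak2V617F cells 17 were called higher with pegIFN and 2 lower, beside 21.7% and 22.3% of all tested genes, with a median log2 fold change of 0.19. In wild-type cells 19 were higher and 3 lower, beside 28.2% and 28.7%, with a median of 0.24. The largest decrease was that of Irf1, an activator of immunoproteasome genes, which averaged 74.7 ± 9.62 CPM in Jak2V617F pegIFN cells and 123 ± 38.7 CPM in Jak2V617F vehicle cells (-0.71 ± 0.18), with -0.95 ± 0.18 in wild-type cells. Other members chosen after their values were seen are Nlrc5, the activator of class I genes, which rose by 0.41 ± 0.12 and 0.51 ± 0.12, and Tap1, the peptide transporter next to Psmb9, which rose by 0.64 ± 0.12 and 0.77 ± 0.12 in Jak2V617F and wild-type cells. Nfe2l1, which drives constitutive subunit genes when proteasome activity falls short, rose by 0.15 ± 0.05 and 0.16 ± 0.05.

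Between the genotypes, 2 of the 29 were called higher in Jak2V617F cells under pegIFN, Pomp and Shfm1, and 5 under vehicle, beside 4.16% and 8.48% of all tested genes. Shfm1, the smallest subunit of the regulatory particle, gave the largest difference under vehicle (0.38 ± 0.08). Pomp, the chaperone of beta ring assembly, averaged 100.4 ± 6.55 CPM in Jak2V617F pegIFN cells, 81.9 ± 5.87 in Jak2V617F vehicle cells, 82.0 ± 7.72 in wild-type pegIFN cells and 69.2 ± 6.78 in wild-type vehicle cells. It was called higher in Jak2V617F cells under pegIFN (0.29 ± 0.07, edgeR adjusted p = 0.011) and vehicle (0.24 ± 0.07, edgeR adjusted p = 0.023). With the mouse as a block 6 of 29 were called higher and 6 lower under pegIFN, the 6 lower ones including Tap1, Tapbp and Nlrc5, beside 13.3% and 11.3% of all tested genes. Under vehicle 10 were higher and 4 lower, beside 17.5% and 13.6%.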

How the data were processed

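Per the labels, 24 RNA libraries were made from sorted LT-HSCs by oligo d(T) selection and single-end sequencing. The authors deposited 1 table of expected counts per gene, which per the submitters' processing notes came from RSEM 1.2.30, with cutadapt 1.11 and STAR 2.5.2a also named and GRCm38 as the build. The annotation release and the strand setting are not given in the sources used here. RSEM divides reads that match several genes, so near-copies such as Psme2 and Psme2b-ps share reads.

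Expected counts were rounded, genes were filtered with filterByExpr (minimum count 10), and 22336 of 38215 genes were removed. All 4 groups of 6 libraries entered 1 fit of group means with TMM factors and edgeR 4.0.16 quasi-likelihood tests (R 4.3.3), with Benjamini-Hochberg adjustment over 15879 genes. Ratios were log2((a + 0.5)/(b + 0.5)) of unrounded and unscaled expected counts, tested by exact two-sided permutation tests (scipy 1.17.1) and adjusted over 15 comparisons. With 6 against 6 libraries these exact permutation tests cannot go below p = 0.0022. Levels per kilobase used the length of 1 principal transcript per gene. The edgeR fit of group means was tested on simulated counts, which had a treatment effect and no pairing within mice. All sample columns of the table were used.

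Alternatives were DESeq2 1.42.0, limma-voom (limma 3.58.1) with the mouse as a random block, the mouse as a fixed block, RLE and upper-quartile factors, other filters, only the groups compared, leaving out each library, and leaving out the 2 libraries that stood apart. Library names carry the number of the mouse, so both genotypes of 1 mouse are paired. Deviations from group means correlated between partners at 0.173 to 0.586 (median 0.421), and in 11 of 12 mice the partner gave the highest correlation. Mice are the replicates. Comparisons that use the same libraries, such as both treatments in 1 genotype and both genotypes in 1 treatment, are not independent. Named genes are the inducible genes, their counterparts, the caps, the tissue-specific genes and, in each class, the called genes of largest and smallest change. 1 gene of the partner list is not reported here by name. The members and lists were chosen with earlier results of these data known.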

Additional observations from a re-analysis of the deposited data

Results flagged for a closer look

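Among 64 tests of groups of 6 libraries for 1 value far from the rest, 2 passed the critical value of 0.625 for the gap divided by the range, and chance passes about 1 in 20. Psme1 had 288.5 CPM in wild-type pegIFN replicate 2, where the other 5 libraries of that group had 307.2 to 317.5 CPM (gap over range 0.643). This library lay above every wild-type vehicle library. The log2 ratio of Psmb10 to Psmb7 was -0.12 in wild-type pegIFN replicate 6, with 0.13 to 0.27 in the other 5 (gap over range 0.633). Without replicate 6 the wild-type difference in this ratio, pegIFN minus vehicle, was 0.03, against -0.02 with it, and neither was called by exact permutation test.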

How the results depend on the processing

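The counts for pegIFN against vehicle moved little. Leaving out 1 library gave 46 to 47 genes called higher in Jak2V617F and 46 in wild-type cells. Psmf1 lost its Jak2V617F call with upper-quartile factors. Psma8 was called lower in Jak2V617F cells without the 2 libraries that stood apart. The genotype count under pegIFN was 15, and it was 9 with no filter, 25 with only the groups compared, 35 higher and 1 lower with the mouse as replicate block, 34 and 1 with limma-voom, and 6 without the 2 libraries. Leaving out 1 library gave 3 to 29 there and 22 to 38 under vehicle. With the replicate number as block across treatments, where numbers are different mice, the counts for pegIFN against vehicle were 47 in Jak2V617F and 46 in wild-type cells. The mouse block added calls between the genotypes for Psmb2, Psmb3, Psmb4, Psmc3, Psmc4, Psmc5, Psmd1, Psmd6, Psmd7, Psmd9, Psmd10, Psmd13, Psmd14, Psmg2, Psmg3, Psmg4 and Psme2b-ps under pegIFN and for Psma1, Psmc6, Psmd3, Psmd9, Psmd10, Psmd11 and Psme2b-ps under vehicle, besides those given in the report. The cause of these moves was not tested.

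The Psmb8 to Psmb5 ratio, Jak2V617F minus wild-type, lost its calls under sign flips within mice as replicate block (-0.26 and -0.28 under pegIFN and vehicle, exact permutation test, adjusted p = 0.078 for both) and without the 2 libraries (-0.24 and -0.28). The sign-flip test was at its smallest p, 0.031, and could not have called them after adjustment. Leaving out 1 library gave -0.30 to -0.22 under pegIFN, and the call was lost in 11 of 12 such tests. With 5 against 6 libraries the exact test cannot go below p = 0.0043. Psmb9 to Psmb6 under pegIFN ran from -0.25 to -0.17 and was called once, without Jak2V617F pegIFN replicate 3 (exact permutation test, adjusted p = 0.043). Leaving out 1 library turned uncalled values near 0. These were the Psmb8 to Psmb5 interaction (-0.021 to 0.047), pegIFN minus vehicle of Psmb10 to Psmb7 in Jak2V617F (-0.0056 to 0.12) and wild-type cells (-0.095 to 0.040), Psme4 in Jak2V617F cells (-0.032 to 0.045) and Psmb9 between genotypes under pegIFN (-0.010 to 0.042). The Psmb9 to Psmb6 interaction was 0.0033 without the 2 libraries. Psme4 with pegIFN in Jak2V617F cells was -0.00146 with DESeq2, -0.00175 with RLE factors, -0.055 with upper-quartile factors and -0.012 with a minimum of 1 CPM in 12 libraries. With upper-quartile factors it was -0.047 in wild-type cells, where Psmf1 was -0.031.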
